A study of Mus musculus with 16 samples.

Results

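Protein phosphatase genes were followed in the brains of neonatal mice of 4 genotypes. A gene was a member if its symbol in the array's probe annotation began with Ppp1 to Ppp6, Ppm1, Ptpn, Ptpr, Ptp4a or Dusp and a digit, and these symbols were carried by 209 spots for 98 of the 10225 genes with a single symbol. Of the 98 genes, 64 belong to the serine/threonine class (Ppp and Ppm1), 22 to the tyrosine class (Ptpn, Ptpr and Ptp4a) and 12 to the dual-specificity class (Dusp). Values on at least 3 of the 4 arrays of every genotype were held by 90 of them (61, 18 and 11), and these 90 were tested. No measured value entered the choice of members.

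The genotypes were wild-type (C57BL/6j), Cx43 null, Cx43 heterozygous and Cx32 null (the last 3 on C57BL), all neonatal, with 4 arrays each. By these labels every comparison of a line with wild-type also sets C57BL against C57BL/6j, so genotype and background cannot be told apart in it. Astrocytes are coupled by gap junctions made mainly of connexin 43, the product of Gja1, and connexin 32, encoded by Gjb1, forms gap junctions between the myelin layers of oligodendrocytes. On each 2-colour cDNA array the Cy3 channel held brain cDNA and the Cy5 channel a common reference, prepared in 1 batch from adult aorta, brain, heart, kidney, liver, lung, gonads, spleen and stomach of male and female C57BL mice. The labels of wild-type replicates 3 and 4 name only the dye of the reference. Nothing in the labels tells a pool from a single animal or says how the alleles were made, so the p-values below measure the spread between these samples, which may be technical.

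All values are log ratios, read as log2, of brain to reference after centring each array on its median, or differences between genotypes of such ratios. Neither the base of the logarithm nor which channel is the numerator is given in the sources used here. Brain as numerator is likely, because the median of 6 neuron genes lay above that of 4 genes of liver, heart and kidney on 16 of 16 arrays. A log ratio is relative to the reference, so it does not rank the levels of different genes. In whole brain, fewer cells of a type and less RNA per cell cannot be told apart. Differences carry the standard error (SE) of a limma fit to all 16 arrays, and a gene passed when its limma p-value, adjusted by Benjamini-Hochberg over all 14292 transcripts, was under 0.05.

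The number of spots with a value ranged from 21010 to 24819 over the 16 arrays. Wild-type replicate 1 stood apart: its values correlated at 0.64 with the median of the other arrays, against 0.83 to 0.96 for the other 15 arrays. The median SD of the members between arrays was 0.41 in wild-type, 0.26 in Cx43 null, 0.16 in Cx43 heterozygous and 0.17 in Cx32 null brain. Gja1, read by 1 spot whose place relative to the altered part of the gene is not known, averaged 1.56 in wild-type, -1.83 in Cx43 null, -1.36 in Cx43 heterozygous and 0.11 in Cx32 null brain. The Cx43 heterozygous arrays (-1.86 to -1.09) thus lay inside the range of the Cx43 null arrays (-2.92 to -0.60), and the groups are called here by their labels. Gjb1 was not analysed here. Of the marker lists, the mean log ratio of the 5 meningeal genes measured of 8 listed was -0.33 to 0.98 in wild-type against -1.52 to -0.39 in Cx43 null and -0.87 to -0.47 in the other lines. The 4 measured genes of 14 for reference tissues were at -3.57 to -2.68 in wild-type and at -5.11 to -3.56 in the lines, and 5 of 10 red blood cell genes at -1.34 to -0.75 and -2.10 to -1.12. The 5 measured of 10 astrocyte and radial glia genes were at 1.01 to 2.28 in wild-type and 0.65 to 1.44 in the lines, and 6 of 10 neuron genes at 1.40 to 1.77 and 1.32 to 1.81. Microglia and leukocyte genes, 8 of 12, were at -1.18 to -0.98 and -1.75 to -1.08. Of the 8, 4, 6 and 5 passed in Cx43 null, Cx43 heterozygous and Cx32 null brain (1, 3 and 2 as higher). That is 50%, 75% and 62.5%, against 10.8%, 31% and 27.3% of all transcripts. The means of the lists given so far, other than the neuron list, were lower in each line than in wild-type. Of the astrocyte and radial glia genes 3 were lower and 2 higher in each line. For the meningeal genes 4, 3 and 3 were lower and 1, 2 and 2 higher in Cx43 null, Cx43 heterozygous and Cx32 null brain. Endothelial genes, 5 of 10, averaged -0.44 in wild-type and -0.44, -0.36 and -0.51 in Cx43 null, Cx43 heterozygous and Cx32 null brain. Choroid plexus genes, 3 of 7, averaged -0.12 in wild-type and -0.12, -0.18 and -0.27 in these lines. Oligodendrocyte genes, 2 of 10, averaged -0.64 and -1.01, -0.89 and -0.93. The part of the lists in the differences was not tested.

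Protein phosphatases remove the phosphate groups that kinases add. The serine/threonine enzymes PP1 and PP2A consist of a small set of catalytic subunits that are directed to their substrates by many regulatory subunits, and calcineurin pairs a catalytic A subunit with a calcium-binding B subunit. The metal-dependent enzymes (Ppm1) act as single chains. Tyrosine phosphatases are either receptors with an extracellular part, many of them active in axon growth, or cytosolic enzymes. Dual-specificity phosphatases cleave phosphate from both tyrosine and serine or threonine, and several of them switch off MAP kinases.

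The members differed from wild-type brain about as often as other transcripts did. In Cx43 null brain 1 of the 90 was higher and 8 were lower (10% called, against 10.8% of all transcripts). In Cx43 heterozygous brain 8 were higher and 23 lower (34.4% against 31%), and in Cx32 null brain 7 were higher and 21 lower (31.1% against 27.3%). Calls in the lower direction came to 6.43%, 17.5% and 14.3% of all transcripts, and calls in the higher direction to 4.37%, 13.5% and 13.1%. The arrays of line and wild-type did not overlap for 9, 31 and 29 of the 90 members, against 12.9%, 31.1% and 27.8% of all transcripts. The median difference of the members was -0.04, -0.18 and -0.09, and that of all transcripts 0.01, -0.02 and -0.03. The 3 comparisons share the 4 wild-type arrays. Over the 4 genotypes together, limma's moderated F test passed for 22 members (24.4% of 90) and for 25.8% of all transcripts.

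The counts depended on the fit. For Cx43 null brain the 9 calls became 0 when only the wild-type and Cx43 null arrays were fitted or when arrays were weighted by group, 22 without wild-type replicates 3 and 4, 5 under quantile scaling, and 0 to 14 with 1 array left out. It was 4, 1 and 14 without wild-type replicate 1, 2 and 4, and 4, 0 and 3 without Cx43 null replicate 2, 3 and 4. In Cx32 null brain the 28 calls became 17 without wild-type replicate 2 or without Cx32 null replicate 4, 14 with only the 2 groups fitted and 13 with weighted arrays. In Cx43 heterozygous brain the 31 calls became 20 with weighted arrays. The split between higher and lower calls moved with the scaling. With values as deposited, where the median of all transcripts was 0.15 in Cx43 heterozygous brain, it was 15 higher and 18 lower there and 11 and 17 in Cx32 null brain, under quantile scaling 10 and 20 and 9 and 13, and after cyclic loess 13 and 22 and 10 and 19.

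The 61 serine/threonine members had medians of -0.10, -0.20 and -0.13 in Cx43 null, Cx43 heterozygous and Cx32 null brain, with 1, 4 and 4 called higher and 7, 14 and 13 called lower. The 18 tyrosine members had medians of -0.0036, -0.24 and -0.19, with 0, 2 and 1 called higher and 1, 6 and 6 lower. The 11 dual-specificity members had medians of 0.26, 0.31 and 0.31, with 0, 2 and 2 called higher and 0, 3 and 2 lower. The limma count of 0 in Cx43 null brain compares with 1 higher and 1 lower at an unadjusted p under 0.05, and was also 0 after quantile or cyclic loess scaling or with no centring. Without wild-type replicate 1 the medians were -0.09, -0.18 and -0.08 for serine/threonine, 0.03, -0.21 and -0.03 for tyrosine and 0.22, 0.19 and 0.19 for dual-specificity members. In the 3 lines 13.1%, 29.5% and 27.9% of the serine/threonine members were called, against 10.8%, 31% and 27.3% of all transcripts. The shares were 5.56%, 44.4% and 38.9% for tyrosine and 0%, 45.5% and 36.4% for dual-specificity members. The difference between classes was not tested.

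**Figure D1:**
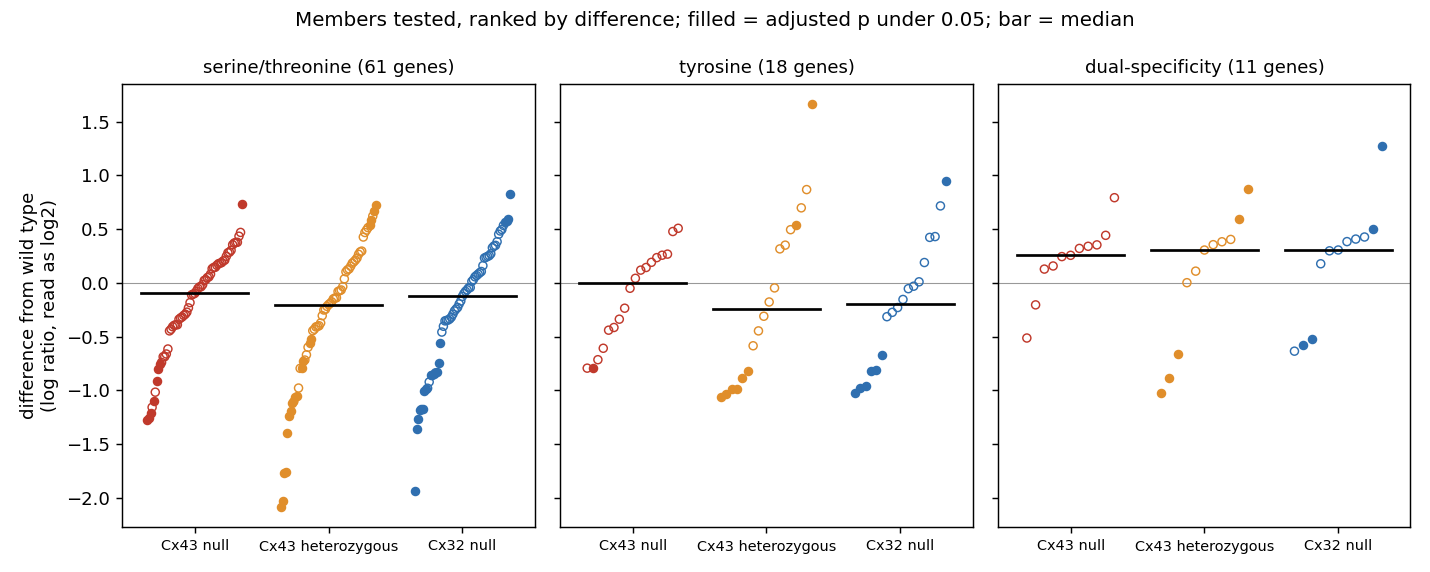
Difference from wild-type (vertical axis, log ratio read as log2) of the 90 members tested, by class and line; each point is 1 gene, ranked within its line, filled if its adjusted p was under 0.05, and the bar is the median. The serine/threonine points reach -2.08 at the low end, the highest tyrosine point is Ptpn11 at 1.67 in Cx43 heterozygous brain, and the medians of the dual-specificity class lie above 0 in all 3 lines.

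The catalytic subunits of the Ppp family, the enzymes that carry the active site, gave calls only in the lower direction. Of 11 measured, 10 had a negative difference in Cx43 null and 11 in both other lines, with medians of -0.41, -0.72 and -0.56. Among all transcripts 10.8%, 31% and 27.3% were called, and 6.43%, 17.5% and 14.3% as lower. Of the catalytic subunits 1, 5 and 4 passed as lower (9.09%, 45.5% and 36.4%) and none as higher. Without wild-type replicate 1, 9 had a negative difference in each line, the medians were -0.22, -0.56 and -0.27, and 0, 6 and 4 passed.

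Of the PP1 catalytic subunits, Ppp1ca was at 0.93, 0.85, 0.71 and 0.29 in wild-type, 0.51, -0.03, -0.55 and -0.17 in Cx43 null, -0.34, 0.27, -0.14 and -0.19 in Cx43 heterozygous and 0.03, -0.10, -0.27 and -0.18 in Cx32 null brain. The lines lay mostly around 0 and wild-type above it, with Cx43 null replicate 1 inside the wild-type range. Ppp1ca passed as lower in all 3 lines, by limma, at -0.76 ± 0.22 (adjusted p = 0.0374), -0.79 ± 0.22 (adjusted p = 0.0112) and -0.83 ± 0.22 (adjusted p = 0.0109); in Cx43 null brain the adjusted p was 0.0754 without wild-type replicate 1 and 0.142 without Cx43 null replicate 3. Its 3 spots were all lower in each line, with the smallest differences at -0.26, -0.47 and -0.45. Ppp1cb was at 3.17, 0.41, 0.44 and 0.54 in wild-type, so replicate 1 stood far above the other 3. Its lines spanned 0.07 to 0.85, -0.20 to 0.14 and 0.07 to 0.58, and its differences of -0.74, -1.10 and -0.86 did not pass. The same array set the wild-type mean of Ppp1cc, at 2.46, -0.03, -0.33 and -0.10. Ppp1cc ran from -0.98 to -0.84 in Cx43 heterozygous brain, where it passed (-1.40 ± 0.42, adjusted p = 0.0188, and -0.75 with an adjusted p of 0.00994 without wild-type replicate 1).

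Both PP2A catalytic subunits had negative differences in every line, and 1 of them passed. Ppp2ca ran from 0.79 to 0.94 in Cx43 null, 0.80 to 0.92 in Cx43 heterozygous and 0.73 to 1.15 in Cx32 null brain against 2.12, 1.07, 0.77 and 1.14 in wild-type, and its differences of -0.39, -0.43 and -0.34 did not pass. Ppp2cb, its close paralogue, was at 2.12, 0.69 and 0.74 (no value for replicate 4) in wild-type, 0.72, 0.43, 0.50 and 0.34 in Cx43 null, 0.13, 0.24, 0.14 and -0.01 in Cx43 heterozygous and 0.22, 0.34, 0.16 and 0.09 in Cx32 null brain. Every Cx43 heterozygous and Cx32 null array lay below every wild-type array, and the differences of -1.06 ± 0.27 (adjusted p = 0.00769) and -0.98 ± 0.27 (adjusted p = 0.0138) passed, while that in Cx43 null brain did not (-0.69 ± 0.27, adjusted p = 0.0953). Without wild-type replicate 1 they were -0.59 and -0.51, with adjusted p of 0.0153 and 0.034. These values come from 1 spot. Another spot of Ppp2cb had too few Cx43 heterozygous values to meet the filter. It was at 1.20, -0.16, -0.47 and 0.22 in wild-type and 0.14, -0.01, 0.04 and 0.07 in Cx32 null brain. On that spot the Cx32 null arrays lay inside the wild-type range. On a cDNA array these paralogues can share signal, so they are not fully separate measurements.

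The PP2A scaffold subunits, which hold the catalytic and the regulatory subunit together, passed in no line in limma; at an unadjusted p under 0.05, 1 of the 2 was lower in Cx43 heterozygous and 1 in Cx32 null brain. Ppp2r1a was at 1.39, 3.24, 3.04 and 3.31 in wild-type, 3.66, 2.44, 1.51 and 2.17 in Cx43 null, 1.81, 1.65, 1.85 and 1.77 in Cx43 heterozygous and 2.00, 1.95, 1.85 and 1.84 in Cx32 null brain. Here wild-type replicate 1 was the lowest of its group and lay below every array of the lines. The differences were -0.30, -0.98 and -0.84 (adjusted p = 0.627, 0.0658 and 0.118), and without that array -0.75, -1.43 and -1.29 (adjusted p = 0.145, 0.00461 and 0.0106), so Ppp2r1a then passed in the last 2 lines. Ppp2r1b was narrow in Cx43 heterozygous brain (-0.38 to -0.25) and spread from -0.70 to 0.63 in Cx43 null brain, and its differences were 0.03, -0.40 and 0.25.

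Calcineurin, the calcium-dependent phosphatase abundant in neurons, held the member with the lowest difference among those read by spots in register. Ppp3r1, its calcium-binding B subunit, was at 2.81, 2.50, 2.06 and 1.24 in wild-type, 1.62, 1.06, 0.43 and 0.64 in Cx43 null, 0.20, 0.06, 0.14 and 0.10 in Cx43 heterozygous and 0.31, 0.22, 0.05 and 0.28 in Cx32 null brain. Every array of the Cx43 heterozygous and Cx32 null groups lay below every wild-type and every Cx43 null array, and Cx43 null replicate 1 lay within the wild-type range. The differences from wild-type were -1.22 ± 0.28 (adjusted p = 0.0192), -2.03 ± 0.28 (adjusted p = 0.000195) and -1.94 ± 0.28 (adjusted p = 0.000511), or 2.32-fold, 4.08-fold and 3.83-fold lower. In the last 2 comparisons Ppp3r1 passed under all 28 alternatives that were run, and in Cx43 null brain under 23 of 28, with failures that include the fit without Cx43 null replicate 3 (adjusted p = 0.0812) and that of the 2 groups alone (adjusted p = 0.153). A single spot carries this gene.

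The calcineurin A subunits, the catalytic partners of Ppp3r1, were less even. Ppp3cb was at 2.58, 2.95, 2.85 and 2.90 in wild-type, 2.56, 1.62 and 2.23 (no value for replicate 1) in Cx43 null, 2.05, 1.45, 1.63 and 1.66 in Cx43 heterozygous and 2.02, 2.04, 1.73 and 2.11 in Cx32 null brain. No line overlapped wild-type, and Ppp3cb passed as lower in Cx43 heterozygous (-1.12 ± 0.20, adjusted p = 0.00114) and Cx32 null brain (-0.85 ± 0.20, adjusted p = 0.00751), with -0.69 ± 0.22 (adjusted p = 0.053) in Cx43 null brain. Ppp3ca, the main A subunit of forebrain, had differences of 0.02, -0.25 and -0.23, none of which passed; 1 of its 5 spots passed on its own in Cx43 heterozygous (-0.97, adjusted p = 0.00248) and Cx32 null brain (-0.93, adjusted p = 0.00425), and the other 4 did not. Ppp3cc, known best from testis, is read here only by a spot in an array block that was out of register, described below, and its wild-type arrays ran from -2.40 to 0.44.

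Among the remaining catalytic subunits, Ppp6c was at 1.20, 0.84 and 0.83 (no value for replicate 1) in wild-type, 0.51 to 0.84 in Cx43 null, 0.23 to 0.61 in Cx43 heterozygous and 0.08 to 0.66 in Cx32 null brain. It passed as lower in the last 2 lines (-0.56 ± 0.19, adjusted p = 0.032 and -0.56 ± 0.19, adjusted p = 0.0356). Ppp4c (-0.33, -0.25 and -0.04) did not pass in any line. Ppp5c, whose product associates with chaperones, was at -0.03, 2.00 and 1.63 (no value for replicate 4) in wild-type, so replicate 1 lay well below the other 2, and at 0.16 to 1.91, 0.28 to 0.59 and 0.59 to 1.15 in the lines. Its differences of -0.41, -0.72 and -0.35 did not pass; without wild-type replicate 1 they were -1.02, -1.34 and -0.96 (adjusted p = 0.0913, 0.0133 and 0.0746), so that in Cx43 heterozygous brain passed.

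**Figure D2:**
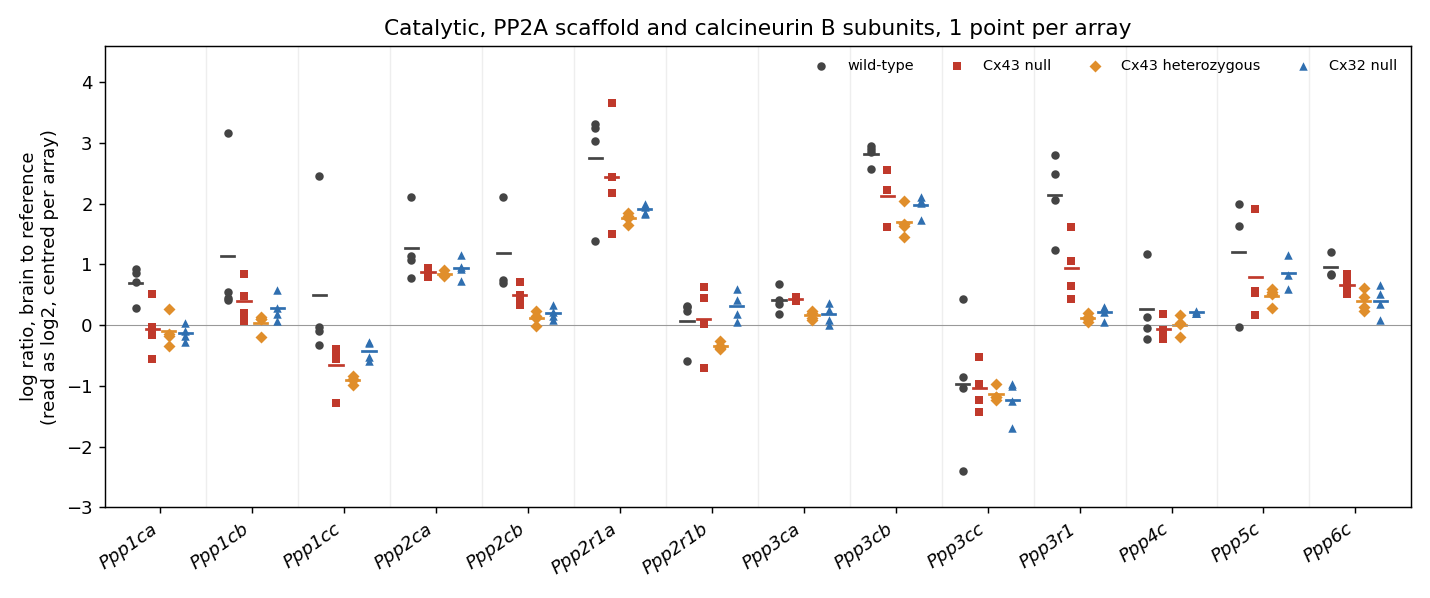
Log ratio of brain to reference (vertical axis, read as log2, centred per array) of the 11 catalytic subunits, both PP2A scaffold subunits and calcineurin B (Ppp3r1) on each of the 16 arrays; points are arrays, coloured by genotype, and short bars are group means. Ppp3r1 falls from 2.15 in wild-type to 0.12 and 0.21 in Cx43 heterozygous and Cx32 null brain, and a single wild-type point stands far above its group at 3.17 for Ppp1cb and 2.46 for Ppp1cc.

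The regulatory B subunits of PP2A, which choose its substrates, moved in both directions. Of 8 measured, Ppp2r5c and Ppp2r2d passed as lower in all 3 lines and Ppp2r3d as higher in Cx43 null and Cx43 heterozygous brain. That is 37.5%, 37.5% and 25% called in Cx43 null, Cx43 heterozygous and Cx32 null brain, against 10.8%, 31% and 27.3% of all transcripts. Ppp2r5c was at 2.42, 1.81, 1.80 and 1.45 in wild-type, 1.29, 1.11, 0.68 and 1.19 in Cx43 null, 0.65, 0.66, 0.72 and 0.70 in Cx43 heterozygous and 0.67, 0.74, 0.61 and 0.73 in Cx32 null brain. All 12 arrays of the lines lay below all 4 wild-type arrays, and the Cx43 heterozygous and Cx32 null arrays lay together, between 0.61 and 0.74. Its differences were -0.81 ± 0.19 (adjusted p = 0.0197), -1.19 ± 0.19 (adjusted p = 0.000451) and -1.19 ± 0.19 (adjusted p = 0.000879). Each of its 3 spots that met the filter was lower in each line, from -0.68 to -1.72. Ppp2r2d was at 2.78, 1.90, 1.29 and 1.56 in wild-type, 1.42, 0.54, -0.02 and 1.19 in Cx43 null, 1.09, 0.98, 0.57 and 0.67 in Cx43 heterozygous and 0.64, 0.68, 0.84 and 0.69 in Cx32 null brain, and differed by -1.10 ± 0.30 (adjusted p = 0.0336), -1.05 ± 0.30 (adjusted p = 0.0153) and -1.17 ± 0.30 (adjusted p = 0.0109). Ppp2r3d, a calcium-binding B subunit, was at -1.33, -1.19, -1.31 and -0.84 in wild-type and -0.66, -0.52, 0.01 and -0.57 in Cx43 null brain. Those groups did not overlap, and the difference was 0.73 ± 0.20 (adjusted p = 0.03), with 0.54 ± 0.20 (adjusted p = 0.0447) in Cx43 heterozygous and 0.53 ± 0.20 (adjusted p = 0.0503) in Cx32 null brain. In Cx43 null brain it was the single member called higher, and it did not pass without wild-type replicate 1 (adjusted p = 0.0568).

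The PP1 regulators, 22 measured, include inhibitors and targeting subunits. In Cx43 null, Cx43 heterozygous and Cx32 null brain 0, 2 and 1 of them passed as higher and 2, 5 and 4 as lower. That is 9.09%, 31.8% and 22.7% called, against 10.8%, 31% and 27.3% of all transcripts. Ppp1r1b encodes DARPP-32, the dopamine-regulated PP1 inhibitor of striatal neurons. It was at 1.33, 0.42, 0.32 and -0.21 in wild-type, -0.26, -0.70, -1.72 and -0.55 in Cx43 null, -0.99, -0.54, -2.46 and -1.15 in Cx43 heterozygous and -0.96, -0.50, -0.56 and -0.80 in Cx32 null brain, and all arrays of the lines lay below all wild-type arrays. The differences were -1.28 ± 0.38 (adjusted p = 0.0428), -1.76 ± 0.38 (adjusted p = 0.00325) and -1.17 ± 0.38 (adjusted p = 0.0315); without wild-type replicate 1 only that in Cx43 heterozygous brain passed (adjusted p = 0.112, 0.00964 and 0.0952). Ppp1r14b, an inhibitor of PP1, also passed in every line and differed by -0.92 ± 0.22 (adjusted p = 0.0226), -1.24 ± 0.22 (adjusted p = 0.000976) and -1.004 ± 0.22 (adjusted p = 0.00498). For this gene Cx43 null replicate 1 was at 2.30, inside the wild-type range of 2.15 to 2.56. The other arrays of the lines lay below that range. The others called lower were Ppp1r32 in both Cx43 heterozygous and Cx32 null brain (-0.72 and -0.74; adjusted p = 0.0288 and 0.0399), Ppp1r3b, described below, and in Cx43 heterozygous brain Ppp1r12c (-0.52 ± 0.19, adjusted p = 0.0428), which did not pass without its 1 spot out of register (adjusted p = 0.0799). Of the regulators called higher, Ppp1r10, a nuclear targeting subunit, was at -0.94, -0.01, -0.24 and -0.20 in wild-type, 0.88, 0.16, 0.17 and 0.29 in Cx43 heterozygous and 0.09, 0.23, 0.31 and 0.35 in Cx32 null brain. It passed in those lines (0.72 ± 0.21, adjusted p = 0.0168 and 0.59 ± 0.21, adjusted p = 0.0466), in Cx32 null brain not without wild-type replicate 1 (adjusted p = 0.129). On Cx43 heterozygous replicate 1 only the higher-reading of its 2 spots had a value, which raised the average there to 0.88. By spot, the differences in Cx43 heterozygous brain were 0.46 and 0.73. Ppp1r1c, a paralogue of Ppp1r1b, was 0.67 higher in Cx43 heterozygous brain (adjusted p = 0.0322, and 0.0649 without wild-type replicate 1).

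The regulatory subunits of PP4 and PP6, 6 measured, gave 1 call, higher, in Cx43 heterozygous and 2, 1 higher and 1 lower, in Cx32 null brain. That is 16.7% and 33.3% called, against 31% and 27.3% of all transcripts. Ppp4r3a, a PP4 targeting subunit, was at -0.77, -0.51, -0.64 and -0.14 in wild-type, -0.37, -0.20, -0.02 and 0.05 in Cx43 null, 0.0048, 0.05, 0.23 and -0.01 in Cx43 heterozygous and 0.05, 0.07, -0.10 and 0.20 in Cx32 null brain. It passed as higher in the last 2 lines, which did not overlap wild-type (0.58 ± 0.17, adjusted p = 0.0144 and 0.57 ± 0.17, adjusted p = 0.0191), and its value in Cx43 null brain was 0.38 ± 0.17 (adjusted p = 0.133). Its 2 spots were both higher in each line. Ppp6r3, a PP6 subunit, was the lower one, at -0.86 ± 0.24 (adjusted p = 0.0167) in Cx32 null brain.

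The metal-dependent phosphatases, 11 measured, held 1 gene called lower in every line. In Cx43 null, Cx43 heterozygous and Cx32 null brain 9.09%, 9.09% and 27.3% of them were called, against 10.8%, 31% and 27.3% of all transcripts. Ppm1g, a nuclear enzyme tied to pre-mRNA splicing, was at 0.92, 2.00, 1.77 and 0.71 in wild-type, 0.76, 0.12, -0.57 and 0.06 in Cx43 null, -0.35, -0.29 and -0.60 (no value for replicate 2) in Cx43 heterozygous and 0.08, 0.13, -0.24 and 0.01 in Cx32 null brain. Cx43 null replicate 1 overlapped wild-type and no array of the other lines did. The differences were -1.26 ± 0.29 (adjusted p = 0.0189), -1.76 ± 0.31 (adjusted p = 0.000963) and -1.36 ± 0.29 (adjusted p = 0.00418), from 1 spot, and were larger without wild-type replicate 1 (-1.40, -1.91 and -1.50). In Cx32 null brain Ppm1l (1.24, 1.14, 1.77 and 1.75 against 0.98, 0.49, 0.51 and 0.61) and Ppm1f passed as higher, at 0.83 ± 0.24 (adjusted p = 0.0192) and 0.58 ± 0.20 (adjusted p = 0.0413). Ppm1f did not pass without wild-type replicate 1 (adjusted p = 0.0819).

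The 250 bases before the start of Ppp3r1 and Ppm1g, the serine/threonine members in register with the lowest differences in Cx43 heterozygous and Cx32 null brain, are shown as examples of their promoters (RefSeq, GRCm38.p6; an entry was found for 77 of the 98 members). Capitals mark matches, on either strand, to 5 motifs. They are the cyclic AMP response element TGACGTCA, the GC box with the letters GGGCGG, the box named after its letters CCAAT, the E box in its form CACGTG and the TATA box, searched for as TATAAA. Over all 32851 windows of this length, 1.55%, 32.7%, 33.8%, 6.02% and 12.4% held them in this order, and over the 94 windows of members 10.6%, 66%, 33%, 4.26% and 7.45%. Both promoters shown hold only GC boxes, 4 in Ppp3r1 (chr11:17159048-17159297, plus strand; 3 of them share an end base with a neighbour) and 5 in Ppm1g (chr5:31220546-31220795, minus strand). A match is a description of the letters.
Ppp3r1: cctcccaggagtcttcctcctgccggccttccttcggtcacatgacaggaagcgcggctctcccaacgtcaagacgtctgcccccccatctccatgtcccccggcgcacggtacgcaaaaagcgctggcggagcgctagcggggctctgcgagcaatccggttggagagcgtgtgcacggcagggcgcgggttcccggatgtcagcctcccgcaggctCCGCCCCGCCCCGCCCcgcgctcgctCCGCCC
Ppm1g: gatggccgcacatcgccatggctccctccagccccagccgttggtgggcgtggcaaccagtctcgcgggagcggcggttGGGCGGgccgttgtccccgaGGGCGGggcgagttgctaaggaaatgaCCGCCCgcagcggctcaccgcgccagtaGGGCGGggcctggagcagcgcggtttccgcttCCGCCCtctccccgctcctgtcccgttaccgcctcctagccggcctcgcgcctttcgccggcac

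Receptor tyrosine phosphatases, 7 measured, gave 2 calls in Cx43 heterozygous and 2 in Cx32 null brain, all lower and of the same genes, Ptprs and Ptprk. That is 28.6% called in each, against 31% and 27.3% of all transcripts. Ptprs, a proteoglycan receptor of growing axons, was at 1.79, 1.39 and 0.82 (no value for replicate 4) in wild-type, 0.37, 0.62, 0.72 and 0.45 in Cx43 null, 0.02, 0.16, 0.56 and 0.44 in Cx43 heterozygous and 0.77, 0.67, -0.21 and 0.27 in Cx32 null brain. No array of a line reached the wild-type range, and the differences were -0.79 ± 0.26 (adjusted p = 0.0552), -1.04 ± 0.26 (adjusted p = 0.0071) and -0.96 ± 0.26 (adjusted p = 0.013). In Cx32 null brain it did not pass without wild-type replicate 1 (adjusted p = 0.0534). Ptprk differed by -0.71 ± 0.24 (adjusted p = 0.059), -0.88 ± 0.24 (adjusted p = 0.0105) and -0.67 ± 0.24 (adjusted p = 0.0455) and overlapped wild-type in each line. Ptprz1, a receptor of radial glia and oligodendrocyte precursors, had differences of 0.12, 0.87 and -0.03 (adjusted p = 0.849, 0.0755 and 0.955).

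The PRL phosphatases (Ptp4a1 to Ptp4a3), small membrane-anchored enzymes linked to growth and to magnesium transport, had negative differences in all 3 lines, and 1 of 3 passed as lower in Cx43 null brain and 3 of 3 in both other lines, where Ptp4a1 overlapped wild-type. Of all transcripts, 6.43%, 17.5% and 14.3% were called lower in Cx43 null, Cx43 heterozygous and Cx32 null brain. Ptp4a2 was at 1.48, 0.38, 0.27 and 0.60 in wild-type, 0.18, -0.08, -0.64 and 0.12 in Cx43 null, -0.30, -0.40, -0.35 and -0.18 in Cx43 heterozygous and 0.06, -0.22, -0.29 and -0.10 in Cx32 null brain. Its arrays in the lines all lay below wild-type, though wild-type replicate 1 stood well above the other 3. The differences were -0.79 ± 0.24 (adjusted p = 0.0433), -0.99 ± 0.24 (adjusted p = 0.00552) and -0.82 ± 0.24 (adjusted p = 0.0182), and without that array -0.52, -0.72 and -0.55 (adjusted p = 0.0937, 0.00975 and 0.0412). Ptp4a3 was at 0.30, 0.36, 0.03 and 0.03 in wild-type, 0.58, -0.62, -0.77 and -0.91 in Cx43 null, -0.91, -0.62, -1.05 and -0.93 in Cx43 heterozygous and -0.85, -0.66, -0.92 and -0.94 in Cx32 null brain. Cx43 null replicate 1 was the highest of all 16 arrays, and the difference in that line did not pass (-0.61 ± 0.25, adjusted p = 0.111), while -1.06 ± 0.25 (adjusted p = 0.00515) and -1.02 ± 0.25 (adjusted p = 0.00779) did. Ptp4a1 differed by -0.44 ± 0.25 (adjusted p = 0.249), -0.99 ± 0.25 (adjusted p = 0.00838) and -0.81 ± 0.25 (adjusted p = 0.027), and in Cx32 null brain its adjusted p was 0.0653 without wild-type replicate 1. These paralogues may share signal on cDNA spots.

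The cytosolic tyrosine phosphatases, 8 measured, included the largest rise among the members in any line. Ptpn11 encodes SHP2, which carries growth factor signals to the Ras and MAP kinase pathway. Averaged over its spots, it was at -3.16, -1.77, -1.70 and -1.35 in wild-type, -1.57, -1.53, -1.43 and -1.41 in Cx43 null, -0.40, -0.54, -0.26 and -0.12 in Cx43 heterozygous and -0.99, -1.07, -1.34 and -1.72 in Cx32 null brain, and passed in Cx43 heterozygous brain (1.67 ± 0.29, adjusted p = 0.000725) but not in the others (0.51 ± 0.29, adjusted p = 0.235 and 0.72 ± 0.29, adjusted p = 0.0698). Its 3 spots differed in pattern. Spot 811 was at -5.21, -4.99, -4.96 and -3.98 in wild-type and -2.80, -2.31, -2.14 and -2.07 in Cx43 heterozygous brain and differed from wild-type by -0.37 (adjusted p = 0.429), 2.45 (adjusted p = 9.91e-05) and -0.96 (adjusted p = 0.0295) in Cx43 null, Cx43 heterozygous and Cx32 null brain. Spot 4586 differed by 0.90 (adjusted p = 0.0521), 1.47 (adjusted p = 0.0017) and 1.95 (adjusted p = 0.000486), so it passed as higher in Cx32 null brain, where spot 811 passed as lower. Spot 22243 was between 0.18 and 0.83 on every array with a value and differed by 0.12 (adjusted p = 0.697), 0.21 (adjusted p = 0.428) and 0.29 (adjusted p = 0.27). The rise of Ptpn11 therefore rests on 2 spots that oppose each other in Cx32 null brain, and which of the 3 reads the transcript is not known from the files.

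**Figure D3:**
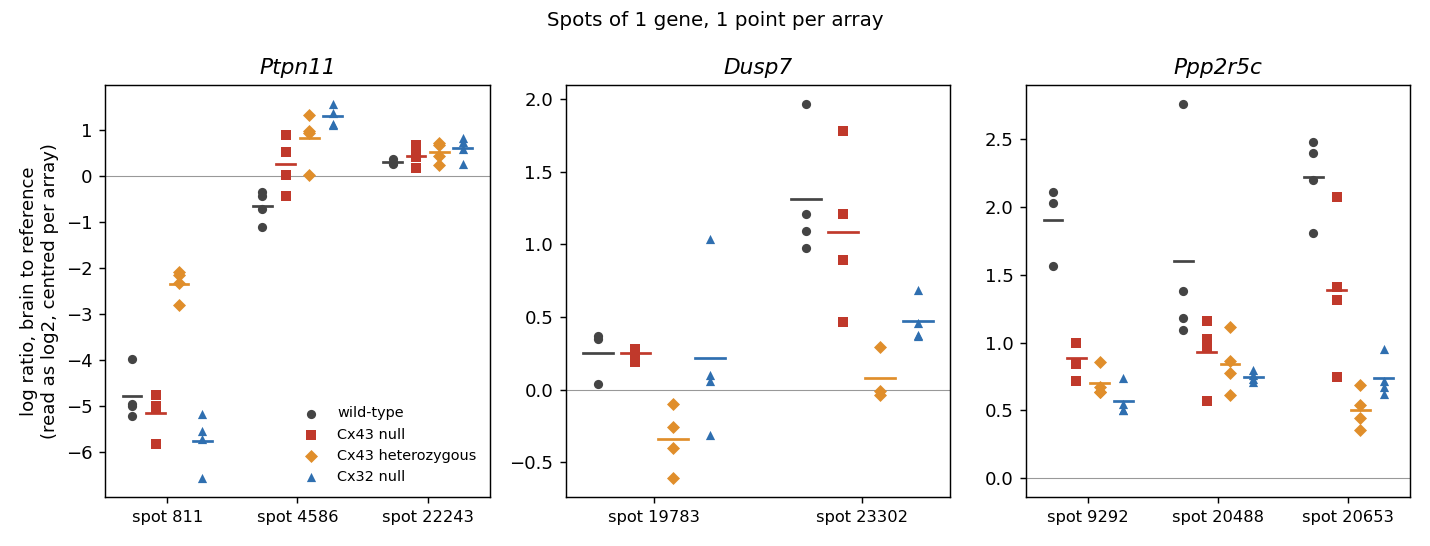
Log ratio of brain to reference (vertical axis, read as log2, centred per array; each panel has its own range) of every spot of Ptpn11, Dusp7 and Ppp2r5c that met the filter, on each array; colours mark genotypes and short bars group means. Spot 811 of Ptpn11 is at -5.21 to -3.98 in wild-type and at -2.80 to -2.07 in Cx43 heterozygous brain, spot 4586 is also higher in Cx43 heterozygous than in wild-type brain but, unlike spot 811, higher in Cx32 null brain too, the 2 spots of Dusp7 have their lowest means in Cx43 heterozygous brain, and the 3 spots of Ppp2r5c are all highest in wild-type.

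Of the other cytosolic enzymes, Ptpn14, a regulator of Yap and of cell junctions, was 0.27, 0.54 and 0.42 from wild-type and passed in Cx43 heterozygous brain (adjusted p = 0.0161), with no overlap. Ptpn3 passed in Cx32 null brain (0.95 ± 0.27, adjusted p = 0.0179), where its arrays were at 0.69, -0.32, -0.34 and -0.59 against -1.36, -0.73 and -1.18 (no value for replicate 1) in wild-type. Ptpn21 passed as lower in Cx43 heterozygous (-0.82 ± 0.22, adjusted p = 0.011) and Cx32 null brain (-0.98 ± 0.22, adjusted p = 0.00537), and without its 1 spot out of register the differences were -0.89 and -1.12.

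The dual-specificity phosphatases included Dusp1 and Dusp7, both of which dephosphorylate MAP kinases. Dusp1, an immediate early gene, was at 0.09, -0.19, -0.98 and -0.85 in wild-type, -0.05, -0.18, -0.51 and -0.68 in Cx43 null, -1.57, -1.03, -1.43 and -1.42 in Cx43 heterozygous and -0.85, -1.02, -1.24 and -1.35 in Cx32 null brain. The Cx43 null arrays lay inside the wild-type range, and the Cx43 heterozygous arrays lay below both. Against wild-type the differences were 0.13 ± 0.23 (adjusted p = 0.734), -0.88 ± 0.23 (adjusted p = 0.00946) and -0.64 ± 0.23 (adjusted p = 0.05), of which that in Cx43 heterozygous brain passed, also under all 28 alternatives. Dusp7, which acts on ERK, was at 0.97, 0.78, 0.57 and 1.17 in wild-type, 0.98, 0.75, 0.36 and 0.58 in Cx43 null, -0.05, -0.10, -0.13 and -0.32 in Cx43 heterozygous and 0.23, 0.75, 0.03 and 0.37 in Cx32 null brain. Averaged over its spots, its Cx43 heterozygous arrays were the 4 lowest of the 16. Wild-type replicate 1 had a value only on spot 23302, and Cx43 heterozygous replicate 2 only on spot 19783, which mostly reads lower. On spot 19783 Cx32 null replicate 3 (-0.31) lay below Cx43 heterozygous replicates 2 and 3 (-0.10 and -0.26). The averaged differences of Dusp7 were -0.20 ± 0.19 (adjusted p = 0.482), -1.02 ± 0.19 (adjusted p = 0.00125) and -0.53 ± 0.19 (adjusted p = 0.049). In Cx32 null brain it overlapped wild-type and did not pass without wild-type replicate 1 (adjusted p = 0.0802). Of its 2 spots, 1 passed on its own, at -1.23 (adjusted p = 0.00428) in Cx43 heterozygous and -0.84 (adjusted p = 0.0244) in Cx32 null brain, and the other was at -0.59 (adjusted p = 0.08) and -0.03 (adjusted p = 0.934).

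Dusp14, Dusp18 and Dusp19 completed the calls of this class. Dusp14 was at 0.77, 0.49, 0.37 and 0.73 in wild-type, 0.58, -0.03, -0.45 and 0.20 in Cx43 null, -0.05, -0.06 and -0.10 (no value for replicate 1) in Cx43 heterozygous and 0.17, -0.08, 0.0046 and -0.05 in Cx32 null brain. It passed as lower in the last 2 lines (-0.66 ± 0.21, adjusted p = 0.0262 and -0.58 ± 0.20, adjusted p = 0.0373), and in Cx32 null brain not without wild-type replicate 1 (adjusted p = 0.0716). Dusp18, a phosphatase found partly in mitochondria, was at -1.42, -0.40, 0.16 and -0.20 in wild-type, 0.31, 0.37 and 0.30 (no value for replicate 1) in Cx43 null, 0.47, 0.08, 0.92 and 0.18 in Cx43 heterozygous and 0.43, 0.90, 0.77 and 1.13 in Cx32 null brain. Wild-type replicate 1 was its lowest array. Its differences were 0.79 ± 0.30 (adjusted p = 0.0925), 0.88 ± 0.28 (adjusted p = 0.0261) and 1.27 ± 0.28 (adjusted p = 0.00503), and without that array 0.56 and 0.96 in the last 2 (adjusted p = 0.066 and 0.00744). Dusp19, which acts in the JNK pathway, rose by 0.60 in Cx43 heterozygous and 0.51 in Cx32 null brain (adjusted p = 0.0214 and 0.049) and was 0.35 ± 0.18 (adjusted p = 0.198) in Cx43 null brain; 2 of its spots met the filter and both were higher in each line. The other members of the class, Dusp3, Dusp9, Dusp10, Dusp11, Dusp16 and Dusp26, did not pass in any line.

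**Figure D4:**
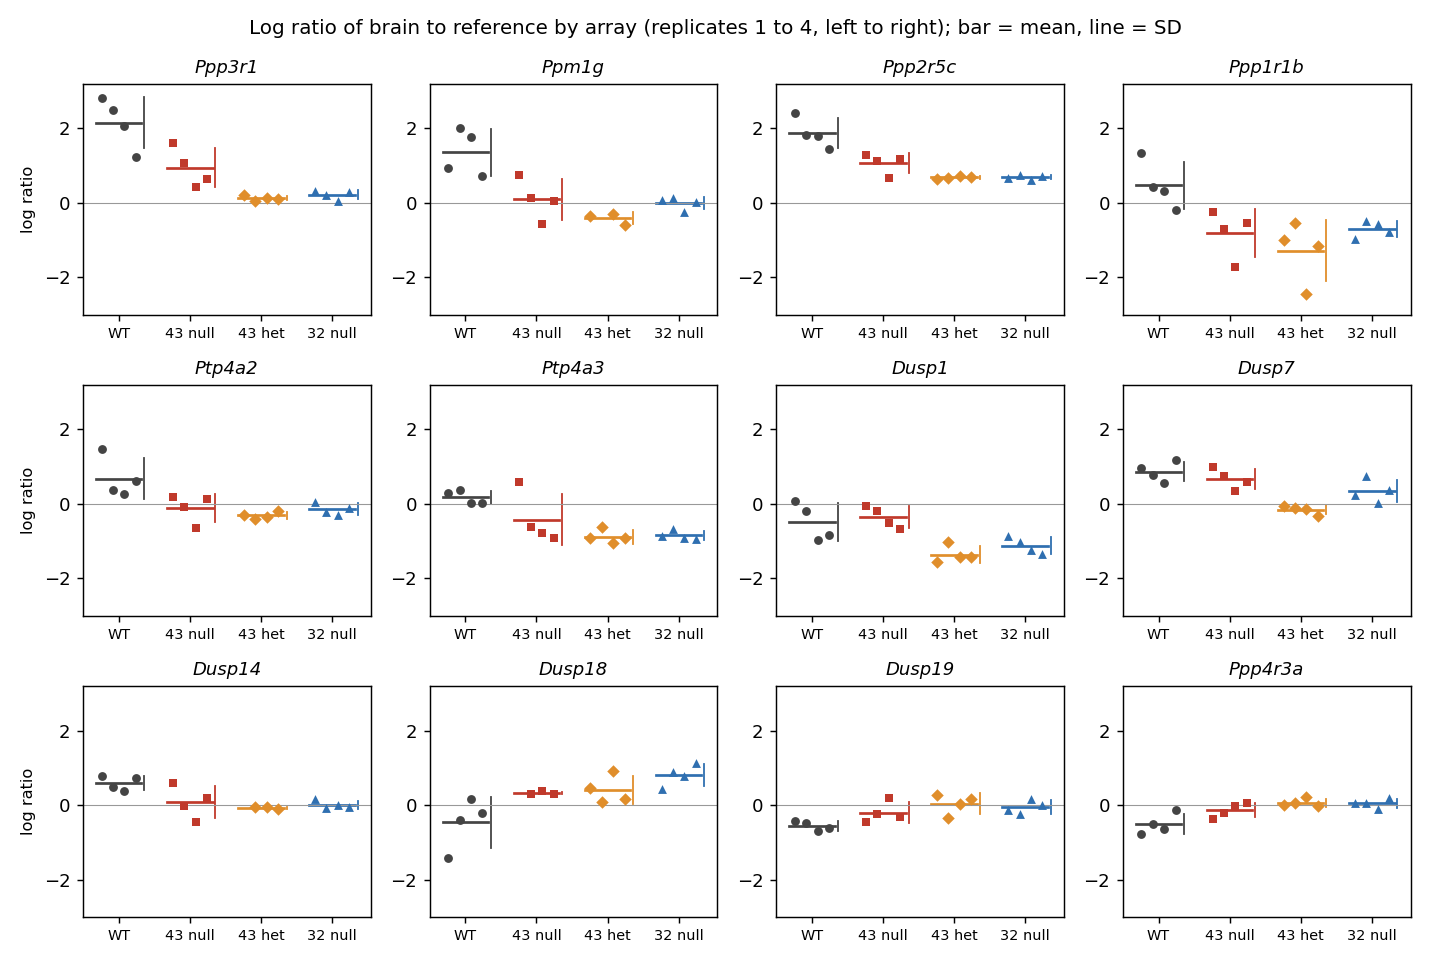
Log ratio of brain to reference (vertical axis, read as log2, centred per array) of 12 members by array, in wild-type (WT), Cx43 null (43 null), Cx43 heterozygous (43 het) and Cx32 null (32 null) brain; points are replicates 1 to 4 from left to right, bars are means and vertical lines span 1 SD on each side. Dusp1 and Dusp7 are lowest in Cx43 heterozygous brain and near wild-type in Cx43 null brain, whereas Ppp3r1, Ppm1g and Ppp2r5c are below wild-type in all 3 lines.

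Contrasts between the lines, which do not use the wild-type arrays except for the common spread, gave few calls. Between Cx43 null and Cx43 heterozygous brain 3 members passed (3.33%, against 1.46% of all transcripts), all higher in Cx43 null brain (0.77% of all transcripts). The groups did not overlap for 12 of the 90 members and for 12.4% of all transcripts. Dusp1 was higher by 1.01 ± 0.23 (adjusted p = 0.0387), or 2.02-fold, and Dusp7 by 0.82 ± 0.19 (adjusted p = 0.0418), or 1.76-fold, each with no overlap between the 4 and 4 arrays. With 1 array left out in turn they passed in 7 and 6 of 16 fits, and without Cx43 null replicate 1 their adjusted p was 0.139 and 0.146. The call of Dusp1 was lost without Cx43 null replicate 1, 2 or 3, any Cx43 heterozygous replicate, or Cx32 null replicate 2 or 3, and that of Dusp7 without wild-type replicate 2, Cx43 null replicate 1, 2 or 4, any Cx43 heterozygous replicate, or Cx32 null replicate 1 or 4. The third was Ppp1r3b, read by a spot in a block where wild-type replicate 4 was out of register. Ppp3r1, with no overlap either, was 0.81 ± 0.28 (adjusted p = 0.194) and did not pass. Between Cx43 null and Cx32 null brain 0 members passed in limma (0.084% of all transcripts, 0.07% as higher and 0.014% as lower), with 8 at an unadjusted p under 0.05 (6 higher and 2 lower in Cx43 null brain) and 0 with arrays weighted by group; the groups did not overlap for 9 members and for 7.88% of all transcripts. Between Cx43 heterozygous and Cx32 null brain 0 passed (1.23% of all transcripts, 0.903% as higher and 0.329% as lower), with 9 at an unadjusted p under 0.05 (5 higher and 4 lower in Cx43 heterozygous brain) and 4 with weighted arrays; here 11 members and 14% of all transcripts did not overlap. For Dusp1 the 95% interval of that last difference was -0.74 to 0.24, and for Ppp3r1 -0.68 to 0.50.

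The promoter of Dusp1, which passed between the Cx43 lines from a spot in register, is shown in the same way (250 bases before the start, RefSeq, GRCm38.p6; chr17:26508473-26508722, minus strand). It holds 1 cyclic AMP response element, 3 GC boxes and 1 E box, and a GC box directly follows the element. The window listed for Dusp7 reaches into the gene and is not shown.
Dusp1: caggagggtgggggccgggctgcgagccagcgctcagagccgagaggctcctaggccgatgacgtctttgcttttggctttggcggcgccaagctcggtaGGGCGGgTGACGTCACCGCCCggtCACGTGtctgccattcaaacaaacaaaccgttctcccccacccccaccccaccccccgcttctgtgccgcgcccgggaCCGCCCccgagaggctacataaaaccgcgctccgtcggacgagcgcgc

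Other genes of the pathway were taken from 3 lists. Of 33 measured other phosphatases, 1, 2 and 2 were higher and 1, 5 and 3 lower in Cx43 null, Cx43 heterozygous and Cx32 null brain, with medians of -0.08, -0.17 and -0.09. That is 6.06%, 21.2% and 15.2% called, against 10.8%, 31% and 27.3% of all transcripts. Styx, a catalytically inactive relative of the dual-specificity enzymes, rose in all 3 lines (0.67, 0.71 and 0.73; adjusted p = 0.046, 0.0157 and 0.0164), and Mtmr2, a lipid phosphatase, fell in all 3 (-0.67, -0.74 and -0.60; adjusted p = 0.0291, 0.00608 and 0.0213). Cdc14b, an antagonist of cyclin-dependent kinases, fell in Cx43 heterozygous brain by 1.51 (adjusted p = 0.00445), as did Ptpa, an activator of PP2A, by 0.91 (adjusted p = 0.00873), and Eya1 and Ctdnep1 (-1.06 and -0.68; adjusted p = 0.0401 and 0.0275). Phlpp1 rose in Cx43 heterozygous and Cx32 null brain (0.55 and 0.53; adjusted p = 0.0247 and 0.0465), and Pgam5 and Cdc25a fell in Cx32 null brain (-0.75 and -0.44; adjusted p = 0.0214 and 0.0425). Of 30 phosphatase inhibitors and partners, 0, 3 and 2 were higher and 3, 3 and 4 lower (10%, 20% and 20% called), with medians of -0.03, 0.02 and -0.03. Chp1, a calcineurin B homologue, fell in all 3 lines (-0.82, -1.35 and -0.97; adjusted p = 0.0273, 0.000432 and 0.00484), and Fkbp1a, the FK506-binding protein, also did (-1.07, -1.32 and -1.11; adjusted p = 0.0354, 0.00421 and 0.0137). Ppif, cyclophilin D, fell in Cx43 null and Cx43 heterozygous brain (-1.05 and -1.12; adjusted p = 0.025 and 0.00552), and Cnep1r1 and Ppme1, the PP2A methylesterase, in Cx32 null brain (-1.22 and -0.71; adjusted p = 0.00737 and 0.0355). Cttnbp2 and Ppfia4 rose in Cx43 heterozygous brain (0.93 and 0.78; adjusted p = 0.00972 and 0.00245), Tox4 in Cx32 null brain (0.59, adjusted p = 0.0352), and Phactr1, a PP1 and actin regulator, in both (0.49 and 0.50; adjusted p = 0.0423 and 0.0441).

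Of 18 MAP kinases and regulators, 1, 2 and 2 were higher and 1, 3 and 1 lower (11.1%, 27.8% and 16.7% called, against 10.8%, 31% and 27.3% of all transcripts), with medians of -0.09, -0.22 and -0.14. Spry4, an inhibitor of growth factor signalling that is induced by ERK, rose in all 3 lines (0.79, 1.67 and 1.03; adjusted p = 0.0339, 0.000142 and 0.00402). Mapk14, the p38 alpha kinase, rose in Cx43 heterozygous brain (0.74, adjusted p = 0.00713) and Map2k3 in Cx32 null brain (0.53, adjusted p = 0.0318). Araf fell in Cx43 null and Cx43 heterozygous brain (-0.78 and -1.04; adjusted p = 0.0426 and 0.00395), Map2k4 in Cx43 heterozygous brain (-1.46, adjusted p = 0.00984) and Map2k2 in Cx43 heterozygous and Cx32 null brain (-0.64 and -0.72; adjusted p = 0.0322 and 0.0214). All these are limma values over all transcripts.

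Some members were read by spots whose place on the array is in doubt. In 3 of the 48 blocks of 598 spots, 1 array matched the median of the others better after a shift by whole rows. That array was wild-type replicate 4 in the first, Cx32 null replicate 1 in the next and wild-type replicate 3 in the last. Set against Cx43 null replicate 4 alone, 7 arrays, including all 4 wild-type ones, matched better after a shift in the middle block. Of the tested members, 8 used such a spot: Dusp26, Ppp1r3b and Ppp3cc used no other, and Ppm1d, Ppp1r12a, Ppp1r12c, Ppp2r3c and Ptpn21 had spots in register too. Ppp1r3b, a glycogen-targeting subunit of PP1, was at 0.57, -0.12, 0.02 and 1.57 in wild-type, -0.19, 0.12, -0.04 and -0.48 in Cx43 null, -1.60, -1.30, -2.19 and -1.17 in Cx43 heterozygous and -0.90, -0.62, -0.63 and -0.85 in Cx32 null brain. It passed as lower in Cx43 heterozygous (-2.08 ± 0.30, adjusted p = 0.000226) and Cx32 null brain (-1.26 ± 0.30, adjusted p = 0.00684) and as higher in Cx43 null than in Cx43 heterozygous brain (1.42 ± 0.30, adjusted p = 0.0244). Its spot lies in the first of these blocks, where wild-type replicate 4 alone was shifted. The gene behind the value of 1.57 on that array is not certain, and the differences from wild-type include it. The arrays of the lines showed no shift in this block. Where a gene had several spots, their differences had 1 sign for 25, 26 and 24 of 43 genes in the 3 lines.

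The remaining 8 members were not tested. Ptprc, Ptpn9, Ppp6r2 and Ppp1r3f had no value on any array. Dusp28 had values on the 4 Cx43 heterozygous arrays alone (1.54 to 2.01) and Ppp2r2a on none of them, while Ptpn13 had 2 values in Cx43 null and Ptpn23 2 in wild-type brain. The labels do not say why a spot has no value, so these patterns are given without a comparison.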

How the data were processed

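Neonatal brain cDNA was hybridised against a common reference on 16 2-colour cDNA arrays, 4 for each genotype. The authors deposited 1 table of 28704 spots holding a log ratio per array, read here as log2; the scanner output, the normalization and the filter behind missing values are not given in the sources used here. Symbols came from the platform's probe annotation, updated through the gene identifier (18267 spots), and 15 spots naming a phosphatase among several symbols were left out. The median of each array (-0.13 to 0.28) was subtracted. Spots with at least 3 of 4 values in every genotype were kept, spots of a gene were averaged, and 14292 transcripts (8654 named genes and 5638 unnamed spots) were fitted in limma 3.58.1 (R 4.3.3) with 4 group means, 6 contrasts and Benjamini-Hochberg adjustment; the fit was checked on simulated data.

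Named genes were every catalytic and scaffold subunit and, per line and class, up to 3 rises and 3 falls that passed without overlap between the groups. Ppp1r12c, Ppp1r14b, Ppp1r32, Ppp2r2d, Ppp6r3, Ptp4a1, Ptprk and Ptprz1 were added after their values were seen. The members and lists were chosen with earlier results of these data known. The number of arrays limits the precision. Alternatives changed the scaling, the filter, the averaging of spots, the samples fitted and the weights, left out blocks of spots or each array in turn, or added a replicate block. The replicate number of wild-type replicate 3 follows its title, because its channel label carries another number.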

Additional observations from a re-analysis of the deposited data

Results flagged for a closer look

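Of 131 groups of 4 arrays tested for a named gene, 8 had 1 array far from the other 3 by Dixon's test at 95%, which chance alone gives in about 1 of 20 groups. In 4 of them the array was wild-type replicate 1: Ppp1cb was at 3.17 there against 0.41 to 0.54, Ppp1cc at 2.46 against -0.33 to -0.03, Ppp2r1a at 1.39 against 3.04 to 3.31, and Ppp2r1b at -0.58 against 0.23 to 0.32. This array stood apart over the whole table too, and its part in these values was not tested. Ppp1cb was at -0.20 in Cx43 heterozygous replicate 4, with the other 3 arrays of that group at 0.10 to 0.14. Ptpn21 was at 0.17 in Cx43 heterozygous replicate 1, with the others at -0.42 to -0.35. In Cx32 null replicate 3, Ppp4c was at 0.24 against 0.2065 to 0.2079 and Ppm1f at 0.16 against 0.05 to 0.07, gaps that are small beside the spread of other groups.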

How the results depend on the processing

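Over the named genes, 1791 of the values recomputed under an alternative kept their direction and their side of the threshold, 201 no longer passed, 30 newly passed and 19 changed sign; the cause of these changes was not tested. For Cx43 null against wild-type, the 9 calls became 5 under quantile scaling, 0 with only the compared arrays, 0 with weighted arrays, 22 without wild-type replicates 3 and 4, and 0 to 14 with 1 array left out. The 31 calls in Cx43 heterozygous brain became 20 with weighted arrays and 25 to 36 with 1 array left out, and the 28 in Cx32 null brain 14 with only the compared arrays, 13 with weighted arrays and 17 to 30 with 1 array left out. The 3 calls that separate Cx43 null from Cx43 heterozygous brain became 5 with weighted arrays and 0 to 5 with 1 array left out. Between Cx43 heterozygous and Cx32 null brain the 0 became 1 when all 16 values were required, 2 with each spot on its own, 2 with only the compared arrays, 4 with weighted arrays and 0 to 2 with 1 array left out, while between Cx43 null and Cx32 null brain it was 0 in every alternative run. The 22 calls of the F test became 11 with weighted arrays and 15 to 25 with 1 array left out. The sign of the difference from wild-type turned in 19 values, and the ranges below are those with 1 array left out. In Cx32 null brain it turned for Ppp3ca with each spot on its own (0.16), for Ppp4c without centring (0.039) and with quantile scaling (0.0687), and for Ppp3cc, Ppp4c and Ppp5c over ranges of -0.74 to 0.21, -0.20 to 0.26 and -0.96 to 0.0559. In Cx43 heterozygous brain Ppp3cc ranged from -0.66 to 0.29 and Ppp4c from -0.41 to 0.0523. In Cx43 null brain it turned with quantile scaling for Ppp2r1a (0.0235) and Ppp2r1b (-0.0529) and without wild-type replicates 3 and 4 for Ppp2r1a (0.13) and Ppp3ca (-0.115), and the ranges were -0.75 to 0.0102 for Ppp2r1a, -0.19 to 0.30 for Ppp2r1b, -0.0508 to 0.11 for Ppp3ca and -0.56 to 0.39 for Ppp3cc. All turns of Ppp3cc and Ppp4c on leaving out an array came without wild-type replicate 1, except 1 of Ppp3cc without Cx43 null replicate 4 (0.0507). None of the 19 values passed. With the replicate number as a block the counts were 9, 32 and 26 against wild-type, 3, 0 and 0 between lines and 24 for the F test. Arrays with the same number showed little common deviation (median correlation 0.02 over 24 pairs, 4 of them over 0.1). Over 72 pairs with other numbers the median was 0, and 14 were over 0.1. Of 16 arrays, 2 correlated best with their own number. With 4 arrays per genotype these correlations cannot show whether a number stands for a shared batch.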
